A study of Mus musculus with 24 samples.

Results

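The genes described here are the matrix metalloproteinases (MMPs), the ADAMTS proteases and the tissue inhibitors of metalloproteinases (TIMPs) of the mouse, the enzymes that cut the extracellular matrix and the proteins that hold those enzymes in check. They were chosen by name alone, as every protein-coding gene called Mmp, Timp or Adamts followed by a number in the Gencode mouse annotation, and these were 45 of the 49671 genes counted: 22 MMP genes, 4 TIMP genes and 19 ADAMTS genes. RNA sequencing covered 24 libraries in 6 groups of 4. NSC were neural stem cells made from 1 mouse embryonic stem cell line (GSC-5003, of C57BL/6N origin by the study's methods), grown in EGF and FGF at passage 50 to 60, and AGES were astrocytes obtained from these NSC by exposure to 20 ng/ml BMP4 lasting 3 to 5 days. The neoAC direct and AdAC direct libraries held astrocytes pulled from C57BL/6J brains with magnetic beads against ACSA-2, a surface antigen of astrocytes, and frozen at once, at postnatal day 4 to 8 (neoAC) or at 100 to 140 days of age (AdAC). For neoAC CellC and AdAC CellC, cells isolated in the same way were grown for 7 to 10 days on poly-lysine and laminin in AstroMACS medium. Brains of 2 mice were pooled for a direct isolation and both sexes were mixed. Neonatal and adult brains were dissociated with different kits, the meninges were taken off the neonatal brains, and olfactory bulb and cerebellum were taken off the adult brains used directly, so age and dissection cannot be told apart. The methods name the removal of these regions for direct isolation only, so in adult astrocytes culture and brain region cannot be told apart either. The substrain likewise differs between the stem cell line and the primary astrocytes, and its part in their differences cannot be told apart from that of the cell source.

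MMPs are zinc proteases that are made as inactive precursors. They are secreted, or in one branch held on the cell surface, and between them they cut collagens, laminins, growth factor carriers and other MMP precursors. TIMPs bind the active site of MMPs and block it, and TIMP3 also blocks several ADAMTS proteases. ADAMTS proteases are secreted and carry thrombospondin repeats that hold them in the matrix. One branch cuts the lecticans, the chondroitin sulphate proteoglycans that fill the matrix of the brain, and another trims the ends of procollagens. In the brain the balance of these proteins is best known from vessel wall opening, glial scars and perineuronal nets.

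Levels are given as CPM, the counts of a gene relative to a fixed library total, after scaling of the libraries by the trimmed mean of M-values (TMM), as mean ± SD of 4 libraries, and levels of different genes are compared only per kb of exon. Differences are log2 fold changes ± standard error from edgeR's quasi-likelihood test, fitted to all 6 groups and 19691 genes together, and a gene was called at a Benjamini-Hochberg adjusted p under 0.05. The libraries held 27904126 to 37997368 counts, so that 3 counts, taken as the floor, corresponded to 0.0786 to 0.117 CPM. Of the 45 members, 39 passed the filter on low counts. Mmp1b, Mmp7, Mmp20, Mmp21, Mmp27 and Adamts13 did not, and Mmp7 had no count in any library. The level reached 10 CPM in at least 1 group for 31 members, lay between 1 and 10 CPM at its highest for 6 (Mmp3, Mmp8, Mmp24, Mmp25, Adamts18 and Adamts19), and stayed under 1 CPM for 8. In bulk RNA, fewer cells of a type and less RNA per cell cannot be told apart.

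The cell type markers differed between groups. The 9 astrocyte markers summed to 55100 to 60000 CPM in AGES, 21200 to 24200 CPM in neoAC direct, 16000 to 16700 CPM in AdAC direct and 7410 to 8610 CPM in neoAC CellC, but to 918 to 1410 CPM in AdAC CellC, although all 9 were over 10 CPM there. The 9 markers of mature oligodendrocytes summed to 28800 to 32400 CPM in AdAC direct and 4570 to 11700 CPM in AdAC CellC, against at most 406 CPM in both neonatal groups. The 8 markers of fibroblasts and meninges summed to 1150 to 1610 CPM in AdAC CellC, 503 to 812 CPM in neoAC CellC, 387 to 608 CPM in neoAC direct and 112 to 138 CPM in AdAC direct. Some libraries stood apart in their group: replicate 2 of neoAC direct held 405 CPM of endothelial markers against 103 to 159 CPM in the other 3, replicate 4 of neoAC direct held 1.94% of mitochondrial counts against 0.99 to 1.04%, and replicate 3 of AdAC CellC held 235 CPM of mesothelial and epithelial markers against 101 to 118 CPM.

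**Figure D1:**
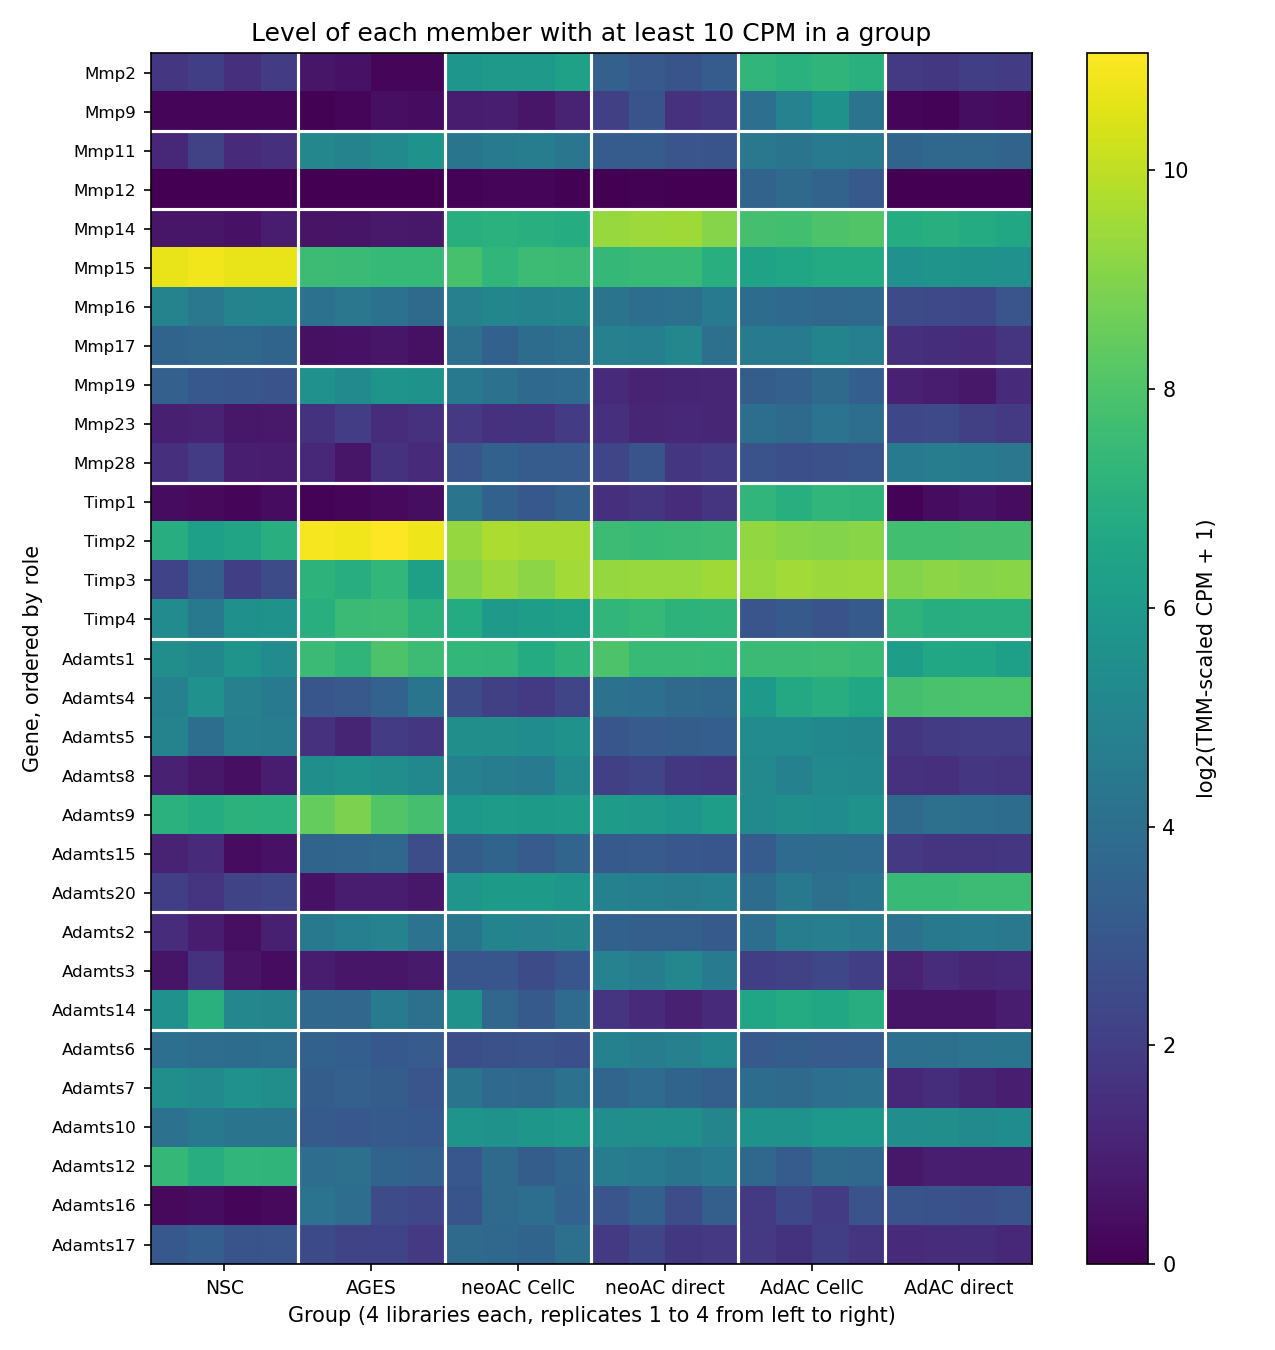
Level of the 31 members with at least 10 CPM in a group, in every library, as log2(TMM-scaled CPM + 1), with genes ordered by role (gelatinases, stromelysin and elastase, membrane-anchored MMPs, other MMPs, TIMPs, lectican-cleaving ADAMTS, procollagen ADAMTS and other ADAMTS, separated by white lines). Mmp15 is brightest in NSC, Timp2 in AGES and Mmp14 in neoAC direct, and Mmp12 is visible in AdAC CellC alone.

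The groups differed in which proteases and inhibitors had their highest mean there. Of the 31 members at 10 CPM or more, 8 were highest in AdAC CellC (Mmp2, Mmp9, Mmp12, Mmp23, Timp1, Timp3, Adamts14 and Adamts15), 7 in AGES (Mmp11, Mmp19, Timp2, Timp4, Adamts1, Adamts8 and Adamts9), 6 in neoAC CellC (Mmp16, Adamts2, Adamts5, Adamts10, Adamts16 and Adamts17), 4 in neoAC direct (Mmp14, Mmp17, Adamts3 and Adamts6), 3 in NSC (Mmp15, Adamts7 and Adamts12) and 3 in AdAC direct (Mmp28, Adamts4 and Adamts20). All 4 libraries of the leading group lay above every other library for 5, 4, 2, 3, 3 and 3 of these, in the same order.

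NSC had the highest MMP sum and the lowest TIMP sum of the 6 groups. Per kb of exon, the MMP sum was 325 ± 17.2 CPM in NSC, of which Mmp15 made up 97.1%. It was 154 ± 20.3 CPM in neoAC direct, where Mmp14 made up 70.5%, and 140 ± 10.5 CPM in AdAC CellC, where Mmp2 led with 31.3%. It was lowest in AdAC direct, at 42.1 ± 3.24 CPM, and AGES lay next at 63.8 ± 2.71 CPM. The TIMP sum ran the other way between the embryonic stem cell derived groups, at 33.3 ± 7.26 CPM in NSC and 536 ± 49.7 CPM in AGES, where Timp2 alone made up 92.1%. The cultures also held more TIMP message than the direct libraries, with 393 ± 16.9 CPM in AdAC CellC against 144 ± 1.23 CPM in AdAC direct, and 300 ± 24.8 CPM in neoAC CellC against 158 ± 5.31 CPM in neoAC direct. The TIMP sum divided by the MMP sum was 0.103 ± 0.0262 in NSC and 8.41 ± 0.915 in AGES. It was 1.04 ± 0.191 in neoAC direct and between 2.83 and 3.42 in the means of the other 3 groups. The ADAMTS sum spanned a narrower range, from 63.4 ± 7.73 CPM in NSC to 107 ± 7.68 CPM in AdAC CellC.

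**Figure D2:**
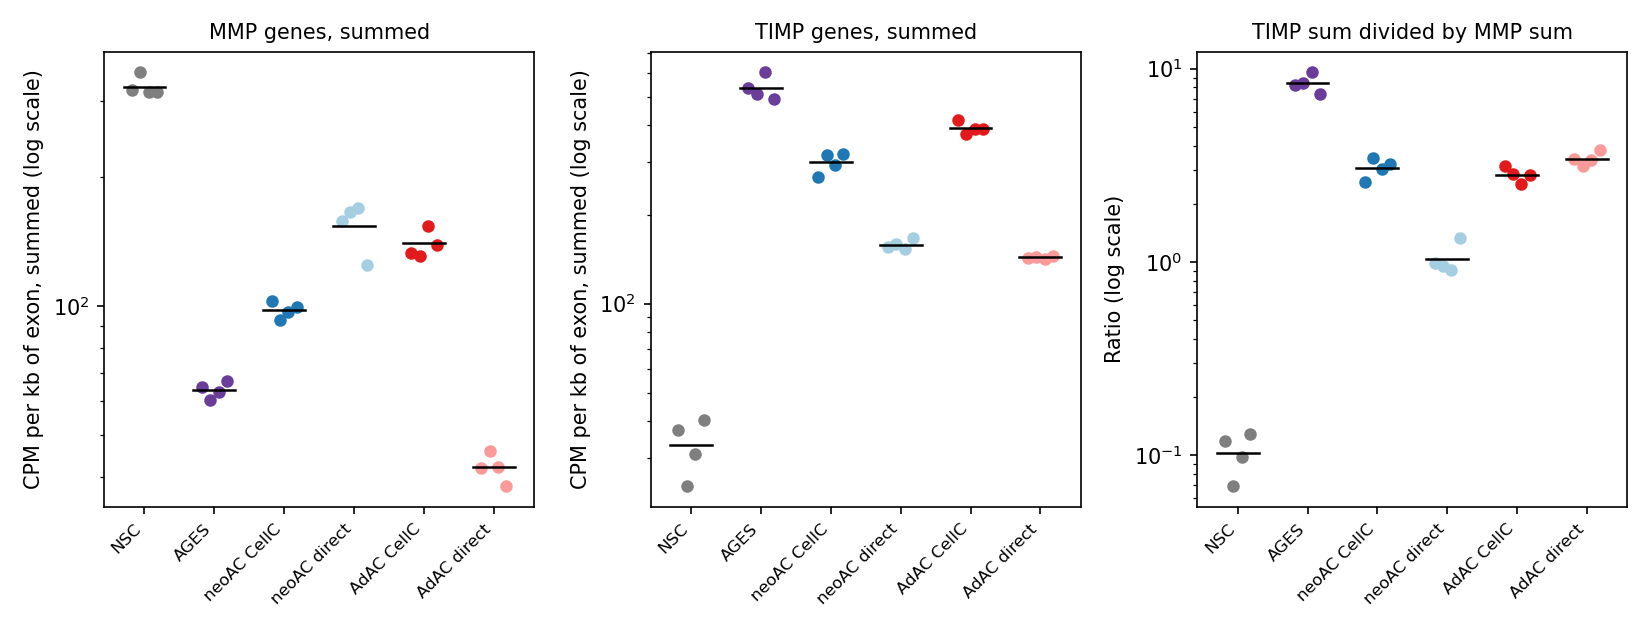
Sum over the MMP genes and over the TIMP genes in CPM per kb of exon, and the TIMP sum divided by the MMP sum, with 1 point per library, a bar at the mean of 4 and log axes. NSC libraries have the highest MMP sum and the lowest TIMP sum, and the ratio spans from 0.0691 in 1 NSC library to 9.59 in 1 AGES library.

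The first comparison asked what 7 to 10 days in culture changed in adult astrocytes (AdAC CellC against AdAC direct). Both gelatinases, 5 genes of the MMP cluster on chromosome 9 and Timp1 rose by large factors, and Timp4, Adamts4, Adamts6, Adamts20 and Mmp28 fell. In all, 28 of the 39 tested members rose and 5 fell, where 38.8% of all genes tested rose and 39.2% fell. The 4 libraries of one group lay wholly above or below those of the other for 36 members, beside 76.3% of all genes. Among the MMPs 14 of 17 rose and Mmp28 fell, among the ADAMTS genes 12 of 18 rose and 3 fell, and the 4 TIMPs split into 2 that rose, 1 that fell and 1 that was not called. The median log2 fold change was 1.35 over the tested members and 0 over all genes. The filter can favour such a rise, since Mmp3, Mmp8, Mmp10, Mmp12 and Mmp13 reached its minimum throughout only in AdAC CellC and Mmp25 only in neoAC direct. Among the 33 others, 23 rose, 5 fell and the median was 1.22.

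Of the gelatinases, which cut denatured collagen and the type IV collagen of basement membranes, Mmp2 stood at 153, 134, 150 and 131 CPM in the AdAC CellC libraries and at 2.7, 2.5, 3.21 and 2.93 CPM in AdAC direct. This was a rise of 5.64 ± 0.20 on the log2 scale (49.9-fold, edgeR adjusted p = 6.51e-18). Mmp9 stood at 15.6, 29.4, 49.8 and 18 CPM in AdAC CellC and at 0.0927 to 0.327 CPM in AdAC direct, a rise of 7.06 ± 0.48 (adjusted p = 1.79e-12). The Mmp9 levels of the cultures thus spread over more than those of Mmp2, and neither gene overlapped between the groups. The highest, in replicate 3, is that of the library with the most mesothelial and epithelial marker message, and without it the rise of Mmp9 was 6.65. Mmp14, the membrane-bound protease that activates the MMP2 precursor together with TIMP2, rose from 112 ± 12.6 to 237 ± 25.2 CPM (1.09 ± 0.10, adjusted p = 3.66e-10). Of the other membrane-anchored MMPs, Mmp17 rose by 3.77 ± 0.20, Mmp16 by 1.33 ± 0.15 and Mmp15 by 0.99 ± 0.12, while Mmp24 and Mmp25 were not called.

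5 genes of the MMP cluster on chromosome 9 came up in the adult cultures from a level at or near 0. This cluster holds 9 members side by side (GRCm38, chr9:7272514-7699585), among them the stromelysins Mmp3 and Mmp10, which cut proteoglycans and activate other MMPs, the macrophage elastase Mmp12 and the collagenases Mmp8 and Mmp13. Mmp12 stood at 10.5, 13.4, 10.6 and 7.57 CPM in AdAC CellC (1444 counts in all) and had 1 count in the 4 AdAC direct libraries, a ratio of 1370 (95% counting interval 246 to 54200). Mmp3 stood at 8.07, 10.1, 6.91 and 7.91 CPM and had no count in AdAC direct, which made it at least 88.5-fold higher in culture against a floor of 3 counts per library. The other 3 were low but present in all 4 cultures. Mmp8 averaged 1.82 CPM in AdAC CellC and had 2 counts in AdAC direct, a ratio of 119 (32.6 to 989). Mmp10 averaged 0.858 CPM against 1 count, a ratio of 110 (19.4 to 4380), and Mmp13 averaged 0.62 CPM against 7 counts, a ratio of 11.5 (5.36 to 29.5). The intervals cover counting error only. The neighbours Mmp1b, Mmp7, Mmp20 and Mmp27 were at 0.081 CPM or less in the mean in AdAC CellC. Exons of Mmp12 and Mmp1b overlap on opposite strands over 157 bp, and whether the counting used strand was not given in the sources used here.

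The region just before the start of these 5 genes is shown here because they lie in the same cluster, and they were chosen after their values were seen. They pass the filter only through AdAC CellC, the group where they are high. A shared rise is thus partly built into the choice, and nothing about their regulation is concluded from it. RefSeq promoters of GRCm38.p6 were read from 90 bases before to 10 after the start, and the capitals mark TGAGTCA or its reverse complement TGACTCA, the letters bound by the AP-1 family of transcription factors.
Mmp13, chr9:7272424-7272523, plus strand: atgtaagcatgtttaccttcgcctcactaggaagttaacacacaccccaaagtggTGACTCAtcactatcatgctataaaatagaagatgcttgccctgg
Mmp12, chr9:7347284-7347383, plus strand: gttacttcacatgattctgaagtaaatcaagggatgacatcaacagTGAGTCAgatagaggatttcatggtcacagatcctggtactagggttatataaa
Mmp3, chr9:7445732-7445831, plus strand: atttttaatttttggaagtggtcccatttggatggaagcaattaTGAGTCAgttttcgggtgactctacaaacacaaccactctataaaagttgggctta
Mmp10, chr9:7502252-7502351, plus strand: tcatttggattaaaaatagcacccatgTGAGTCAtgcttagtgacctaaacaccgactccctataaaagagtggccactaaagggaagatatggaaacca
Mmp8, chr9:7558339-7558438, plus strand: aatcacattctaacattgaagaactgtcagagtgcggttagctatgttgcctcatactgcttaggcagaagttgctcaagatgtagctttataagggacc
The motif began 35 bases before the start in Mmp13, 44 in Mmp12, 46 in Mmp3 and 63 in Mmp10, and Mmp8 had none in this window. Windows of 250 bases before to 50 after the start were searched on both strands. The motif was in 6 of the 9 cluster members (Mmp1b and Mmp7 also held it). It was in none of the 22 other members with a promoter in the table, against 5.95% of all 27025 genes in the table. Only 31 of the 45 members had a promoter in the table, and Mmp2 and Mmp9 were among those not searched. Mmp12 and Mmp7 each have another promoter in the table, without the letters. The Mmp12 stretch shown was picked because it holds them. Mmp1b and Mmp7 did not pass the filter on low counts. Whether the letters bear on the level of any of these genes was not tested.

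The AP-1 subunits themselves moved in both directions. Of 8 tested, 4 rose and 4 fell with culture of adult astrocytes, and all genes tested were called in 78% of cases. Fosl1 stood at 45.6 ± 7.18 CPM in AdAC CellC against 0.0453 ± 0.0374 CPM in AdAC direct (9.83 ± 0.53, edgeR adjusted p = 2.37e-14) and at 2.96 ± 2.07 CPM in neoAC CellC. Fosl2 rose by 4.66 ± 0.30, Atf3 by 1.90 ± 0.27 and Junb by 0.85 ± 0.27, whereas Fos fell by 3.23 ± 0.34 and Jun by 0.52 ± 0.16. In neonatal culture 1 of the 8 rose and 7 fell, beside 34.4% and 31.3% of all genes. The part of these subunits in the changes of the members was not tested.

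**Figure D3:**
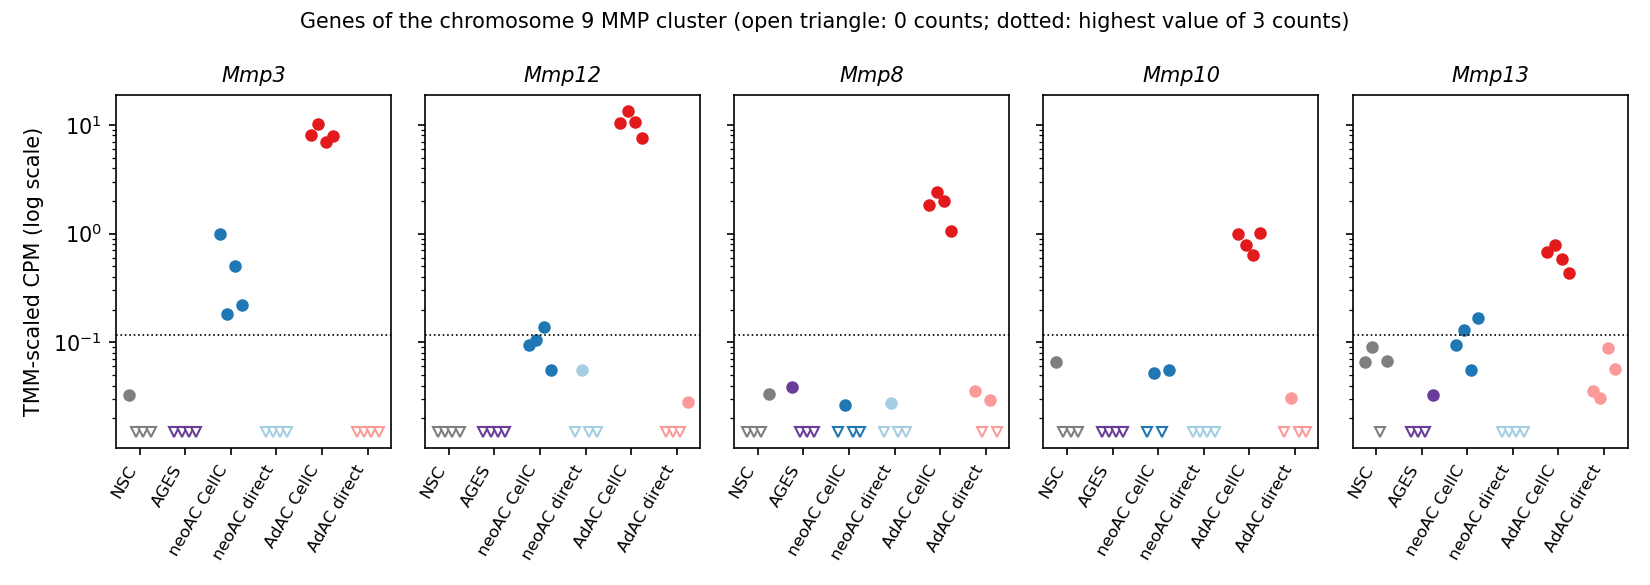
TMM-scaled CPM of Mmp3, Mmp12, Mmp8, Mmp10 and Mmp13, with 1 point per library on a log axis, open triangles for libraries without a count and a dotted line at 0.117 CPM, the highest value of 3 counts. For each gene the 4 AdAC CellC libraries lie above the line and above all libraries of the other 5 groups.

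The inhibitors moved in different directions in adult culture. Timp1, the inhibitor induced by inflammation and growth factors, stood at 157, 125, 154 and 145 CPM in AdAC CellC and at 0.071, 0.309, 0.475 and 0.282 CPM in AdAC direct (8.94 ± 0.31, edgeR adjusted p = 9.65e-18). Timp4, an inhibitor of restricted expression, stood at 6.54, 7.87, 6.08 and 7.82 CPM in the cultures and at 148, 120, 121 and 125 CPM in AdAC direct, a fall of 4.18 ± 0.23 (adjusted p = 9.51e-14). The libraries of the groups were far apart for both genes. Timp2 rose from 216 ± 7.4 to 559 ± 39.4 CPM (1.37 ± 0.12), and Timp3, the inhibitor that binds to the matrix, was at 689 ± 33.5 against 538 ± 17.7 CPM and was not called (0.36 ± 0.21, adjusted p = 0.116), although it was in a fit of these 2 groups alone (0.37). Reads of Timp3 and Timp4 can include reads of Syn3 and Syn2, whose exons overlap theirs on the opposite strand.

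The lectican-cleaving ADAMTS genes, 7 of them, divided into 5 that rose and 2 that fell in adult culture, beside 38.8% and 39.2% of all genes. The 2 that fell had the highest levels of the 7 per kb of exon in AdAC direct. Adamts4 stood at 223 to 244 CPM in AdAC direct and at 62.8, 101, 118 and 97.8 CPM in AdAC CellC (fall of 1.32 ± 0.25), and Adamts20 at 179 to 192 CPM against 14.1, 21.4, 15.8 and 18.7 CPM (fall of 3.41 ± 0.14, edgeR adjusted p = 2.67e-17). Adamts5, with Adamts4 the aggrecanase best known from cartilage, rose from 2.83 to 37.0 CPM (3.70 ± 0.19), Adamts8 by 4.04 ± 0.20, Adamts15 by 2.39 ± 0.28, Adamts9 by 1.58 ± 0.15 and Adamts1 by 1.17 ± 0.15. In the 4 AdAC CellC libraries the markers of mature oligodendrocytes summed to 4570, 9500, 11700 and 8800 CPM, in the same order of libraries as Adamts4, and 8 of the 9 markers fell from AdAC direct to AdAC CellC. Their part in the fall of Adamts4 was not tested.

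Of the procollagen N-propeptidases, which trim fibrillar procollagens, Adamts14 stood between 0.525 and 0.79 CPM in AdAC direct and between 91.3 and 118 CPM in AdAC CellC (7.43 ± 0.67, edgeR adjusted p = 2.47e-09). Adamts3 rose by 1.35 ± 0.30, while Adamts2 was at 22.1 against 20.4 CPM (0.12 ± 0.21, adjusted p = 0.616). Among the remaining members, Adamts7 and Adamts12, which cut cartilage oligomeric matrix protein, rose by 3.52 ± 0.19 and 3.79 ± 0.23, Mmp19 rose by 3.30 ± 0.23 and Mmp23 by 2.06 ± 0.19. Mmp28 fell from 22.8 ± 2.25 to 5.88 CPM (fall of 1.95 ± 0.29) and Adamts6 fell by 1.04 ± 0.11. With them 5 of 5 ependymal markers fell (1220 to 1410 CPM in AdAC direct, 228 to 322 CPM in AdAC CellC) and 8 of 9 astrocyte markers, and their part in these falls was not tested. With the genes that rose, 7 of 8 fibroblast and meningeal markers rose and 1 fell, with a median log2 fold change of 1.45 over the 8. None was at 0 in AdAC CellC, and Col1a1 went from 38.2 to 813 CPM. Of the markers of mesothelium and epithelium 6 of 6 tested rose, with a sum of 101 to 235 CPM in AdAC CellC against 27.8 to 30.7 CPM in AdAC direct. The part of such cells in the rise of Mmp2, Mmp3, Timp1 and Adamts14 was not tested. Markers of neutrophils, a known source of Mmp8 and Mmp9, summed to under 1 CPM in every library. Of 10 microglial markers 6 rose and 2 fell, with a sum of 73.3 to 98.6 CPM in AdAC CellC against 60.7 to 66.1 CPM in AdAC direct, and their part in the rise of Mmp12, a gene of macrophages, was not tested.

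In neonatal astrocytes the same step into culture (neoAC CellC against neoAC direct) raised 19 of the 39 tested members and lowered 12, where 34.4% of all genes tested rose, 31.3% fell and 65.7% were called in either direction. The libraries of the groups did not overlap for 30 members, beside 58% of all genes. Mmp2, Mmp19, Adamts8 and Adamts14 were among those that rose. Of the 6 MMPs listed as membrane-anchored, 3 fell (Mmp14, Mmp17 and Mmp25, the last of which passes the filter only through neoAC direct), Mmp16 rose and 2 were not called. Mmp23, anchored too but listed with the other MMPs, rose by 0.75 ± 0.21. The median log2 fold change was 0.46 over the tested members and 0.04 over all genes, and without the 6 members that pass the filter through 1 group it was 0.40, with 16 that rose and 11 that fell.

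Mmp14 stood at 659, 689, 719 and 526 CPM in neoAC direct, and at 121, 133, 127 and 115 CPM in neoAC CellC, a fall of 2.39 ± 0.10 (edgeR adjusted p = 5.87e-16). Mmp17, a membrane MMP with a lipid anchor, fell by 0.91 ± 0.17, but its libraries overlapped (16.0 to 34.0 against 9.91 to 16.0 CPM). The overlap came from neoAC direct replicate 4, since the other libraries of that group lay at 26.4 to 34.0 CPM. Replicate 4 also held the lowest Mmp14 level of its group and 1.94% of mitochondrial counts. Mmp2 rose from 7.90 ± 1.36 to 64.4 ± 10.3 CPM (3.03 ± 0.18), and Mmp9 fell from 3.52 ± 1.94 to 0.84 CPM (fall of 2.07 ± 0.39). Mmp9 stood at 6.31 CPM in neoAC direct replicate 2, the library with the most endothelial, mural and microglial marker message, and at 2.00 to 3.28 CPM in the other 3, all above the 0.61 to 1.08 CPM of neoAC CellC. With the falls of Mmp14, Mmp17 and Mmp9, 7 of 8 endothelial markers fell (sum 103 to 405 CPM in neoAC direct, 43.6 to 71.3 CPM in neoAC CellC), and so did 7 of 7 mural cell markers (277 to 610 against 50 to 62.4 CPM), 7 of 10 microglial markers, of which 2 rose (32.8 to 101 against 40.9 to 56.1 CPM), and 7 of 9 astrocyte markers. With the rises, 5 of 8 fibroblast and meningeal markers rose and 2 fell, and 5 of 5 ependymal markers rose (141 to 207 against 1420 to 1810 CPM). No marker of these 6 lists was at 0 in either group, and their part in these changes was not tested. Mmp15 was at 192 ± 31.2 against 162 ± 26.1 CPM and was not called (0.24 ± 0.11, adjusted p = 0.0682), but was called without neoAC CellC replicate 2 (0.33) or neoAC direct replicate 2 or 3 (0.29 and 0.30). It was also called with scaling by library size alone (0.47) and with a filter of 10 counts or more in every library (0.34). Of the chromosome 9 cluster, Mmp3, Mmp12 and Mmp13 were called higher in neoAC CellC, at levels under 1 CPM. Mmp3 was at 0.998, 0.183, 0.499 and 0.222 CPM (65 counts in all) and had no count in neoAC direct, which made it at least 4.97-fold higher in culture against the floor. Mmp13 had 16 counts against none (at least 1.17-fold), Mmp12 had 14 counts against 2 (ratio 6.21, counting interval 1.43 to 56.3), and Mmp8 and Mmp10 were at or under 0.0554 CPM in every library. The 2 counts of Mmp12 in neoAC direct were in replicate 2. Without that library the fitted log2 rise of Mmp12 was 4.73 instead of 2.38, which is no bound.

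Timp1 rose in neonatal cultures as well, with 1.63 to 2.30 CPM in neoAC direct and 7.40 to 18.2 CPM in neoAC CellC (2.47 ± 0.24). Timp2 rose with 183 to 190 CPM in neoAC direct and 635 to 831 CPM in neoAC CellC (2.03 ± 0.12, edgeR adjusted p = 1.05e-13). Timp4 fell from 152 ± 13 to 80.7 ± 20.7 CPM (fall of 0.92 ± 0.20), and Timp3 was at 632 ± 101 against 669 ± 41.6 CPM (−0.08 ± 0.21, adjusted p = 0.743). Adamts20 rose from 26.2 to 59.5 ± 5.63 CPM (1.19 ± 0.13) and Adamts5 from 8.16 to 44.2 CPM (2.44 ± 0.18). Adamts4 fell from 14.6 to 3.63 CPM, Adamts6 from 28.9 to 5.66 CPM, Adamts3 from 27.6 to 6.39 CPM and Adamts12 from 22.7 to 10.1 CPM. While Adamts4 fell, 7 of 9 mature oligodendrocyte markers rose and 1 fell (sum 332 to 406 CPM in neoAC direct, 277 to 360 CPM in neoAC CellC). Adamts19 stood at 5.51 to 8.78 CPM in neoAC direct and at 0.0262 to 0.156 CPM in neoAC CellC (fall of 6.69 ± 0.59). Adamts14 rose by 3.66 ± 0.58, with replicate 1 of neoAC CellC at 49.0 CPM and the other 3 at 7.84 to 13.7 CPM. Without that library the rise was 2.77.

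Whether culture acted alike at both ages was asked with the interaction of culture and age (the adult change minus the neonatal change). Of the 39 tested members, 22 had a more positive change in adult cells and 7 a more negative one, where 35.4% and 33.2% of all genes did and 68.6% were called either way. Without the 6 members that pass the filter through 1 group, the counts were 19 and 7 and the median difference was 1.26, against 1.31 with them and 0.05 over all genes. For 6 of the 31 members at 10 CPM or more the change was upward in adult and downward in neonatal astrocytes, each called: Mmp9, Mmp14, Mmp17, Adamts1, Adamts3 and Adamts12. The neonatal fall of Adamts1 (0.45 ± 0.15) was no longer called without neoAC CellC replicate 3 (−0.34) or neoAC direct replicate 1 (−0.30), nor by library size alone (−0.22). For Mmp28 and Adamts20 the directions were the reverse. The share of all genes called in opposite directions at the 2 ages is not given here. These counts therefore do not show whether the members differ from other genes in this. The difference was 9.13 ± 0.62 for Mmp9, 3.48 ± 0.14 for Mmp14 (edgeR adjusted p = 2.38e-16), 4.68 ± 0.26 for Mmp17, 4.95 ± 0.29 for Adamts12 and −4.59 ± 0.18 for Adamts20 (adjusted p = 1.18e-16). Timp1 rose at both ages and more so in adult cells (6.47 ± 0.41), and Timp4 fell at both and more so in adult cells (−3.27 ± 0.29). No difference was called for Mmp19 (−0.32 ± 0.32, adjusted p = 0.388), which rose at both ages, for Adamts4 (0.69 ± 0.38, adjusted p = 0.113), which fell at both, for Timp3 (0.44 ± 0.29, adjusted p = 0.185), or for Adamts16 (−1.13 ± 0.51, adjusted p = 0.0537). Fitted to the 4 groups of this comparison alone, the difference was called for Adamts4 (0.70), Timp3 (0.44) and Adamts16 (−1.13), and that of Adamts16 also by DESeq2 (−1.23) and by library size alone (−1.29). Adamts16 was called as well without AdAC CellC replicate 4 (−1.39), neoAC CellC replicate 1 (−1.31) or neoAC direct replicate 2 (−1.28). Adamts4 was called without AdAC CellC replicate 1 (0.86).

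**Figure D4:**
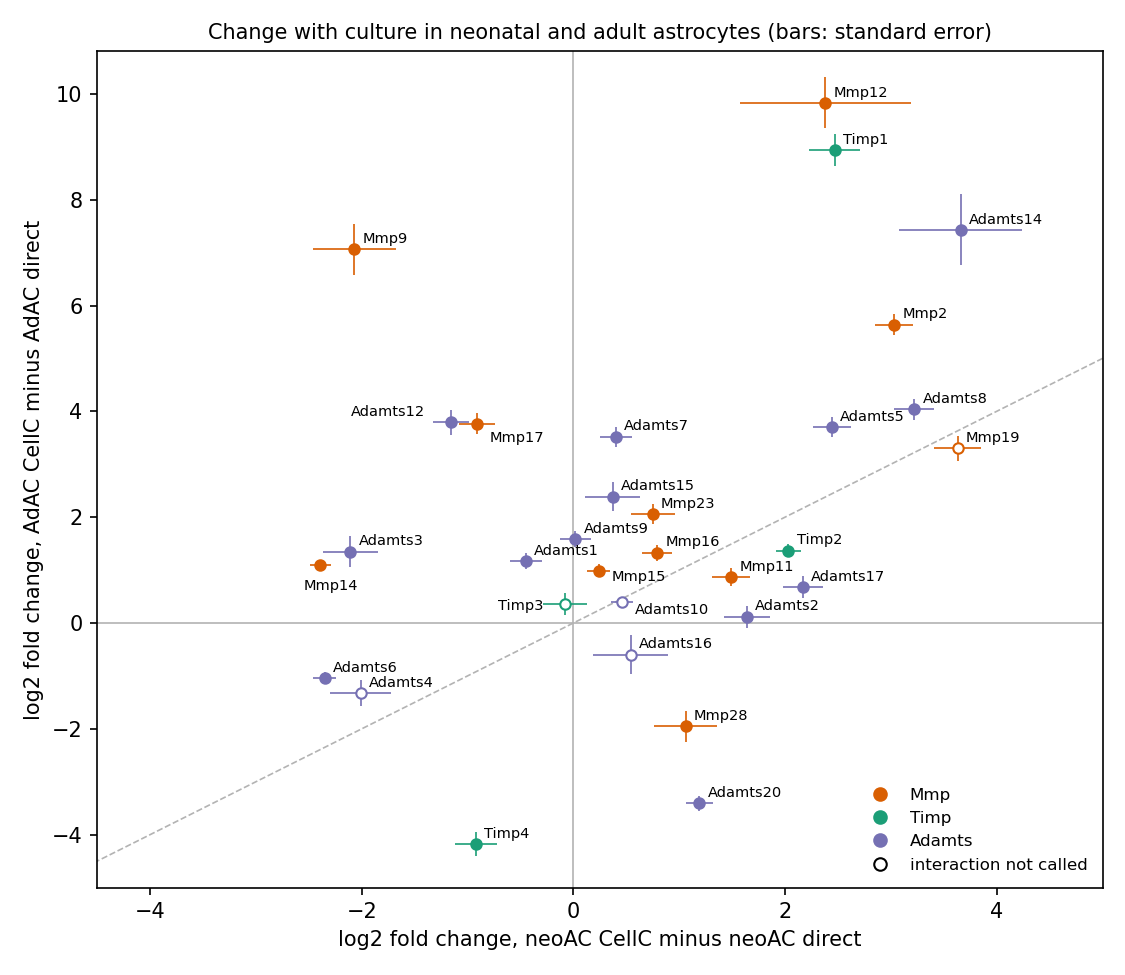
Log2 fold change with culture in neonatal (x axis) and adult (y axis) astrocytes for 31 members, with standard errors as bars, the line of equal change dashed, and open points where the interaction was not called. Mmp9, Mmp14, Mmp17, Adamts1, Adamts3 and Adamts12 lie in the upper left quadrant, Mmp28 and Adamts20 in the lower right, and the fitted values of Mmp12, which rest on 1 and 2 counts in the direct groups, are no bound.

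The direct libraries gave the age difference in the brain itself (neoAC direct against AdAC direct). Neonatal astrocytes had more of 21 of the 39 tested members and less of 7, where 35% of all genes were higher, 36.4% lower and 71.4% called either way, and the libraries did not overlap for 30 members, beside 64.9% of all genes. The median log2 fold change was 0.88 over the tested members and 0 over all genes, and without the 6 members that pass the filter through 1 group it was 1.22, with 20 higher and 6 lower. Both gelatinases and 5 membrane-anchored MMPs were higher in the neonatal libraries, beside Mmp25, which passes the filter only through neoAC direct. Mmp14 was 5.80-fold higher (648 ± 85 against 112 ± 12.6 CPM, 2.54 ± 0.11 on the log2 scale, edgeR adjusted p = 1.01e-16), Mmp17 differed by 3.80 ± 0.20, Mmp16 by 1.82 ± 0.15, Mmp15 by 1.72 ± 0.12, and Mmp24 was at 5.81 against 2.76 CPM. Mmp25 stood at 1.2, 3.93, 0.612 and 0.832 CPM in neoAC direct, highest in replicate 2, and at 0.0355 to 0.278 CPM in AdAC direct. Mmp23, which is also anchored in the membrane and was listed with the other MMPs, was lower at 1.41 against 3.66 CPM (−1.37 ± 0.21). With Mmp2, Mmp9 and Mmp14, 8 of 8 fibroblast and meningeal markers (387 to 608 against 112 to 138 CPM) and 6 of 8 endothelial markers (103 to 405 against 93.4 to 101 CPM) were higher in the neonatal libraries. So were 9 of 9 neural stem cell markers (6770 to 8670 against 508 to 603 CPM), while 5 of 5 ependymal markers were lower (141 to 207 against 1220 to 1410 CPM). No marker of these 4 lists was at 0 in either group, and their part in the differences was not tested. The procollagen protease Adamts3 was at 23.0 to 34.0 CPM in neonatal and 1.14 to 1.67 CPM in adult libraries (4.33 ± 0.30), and Adamts12 at 19.0 to 25.1 against 0.639 to 0.896 CPM (4.78 ± 0.23). Adamts18 and Adamts19 were also higher at the neonatal age, at 6.17 and 7.7 CPM against 0.552 and 0.099 CPM. In the other direction, Adamts4 was at 12.5 to 16.7 CPM in neonatal and 223 to 244 CPM in adult libraries (−4.02 ± 0.28, 16.3-fold), Adamts20 differed by −2.83 ± 0.13 and Mmp28 by −2.54 ± 0.30. Mature oligodendrocyte markers were higher in the adult libraries in 9 of 9 cases, and their part in the Adamts4 difference was not tested. The inhibitors were less apart: Timp2 at 187 ± 3.56 against 216 ± 7.4 CPM (−0.21 ± 0.11, adjusted p = 0.107), Timp3 (0.32 ± 0.21, adjusted p = 0.174) and Timp4 (0.24 ± 0.20, adjusted p = 0.275) were not called. Fitted to the 2 direct groups alone, all 3 were called (−0.18, 0.34 and 0.27). Timp1 was higher in neonatal libraries by 2.77 ± 0.37 at 2.00 against 0.284 CPM.

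Between the cultures (neoAC CellC against AdAC CellC), 12 of the 39 tested members were higher in the neonatal and 15 in the adult cells, beside 28.5% and 35.2% of all genes, and the libraries did not overlap for 28 of the 39, beside 62.2% of all genes. Without the 6 members that pass the filter through 1 group, 12 were higher and 10 lower in the neonatal cells, and the median log2 fold change was 0.03, against −0.13 with them and −0.08 over all genes. Timp1 was 13.0-fold higher in AdAC CellC (11.2 ± 4.76 against 145 ± 14.6 CPM, −3.70 ± 0.22, edgeR adjusted p = 4.61e-13) and Timp4 11.4-fold higher in neoAC CellC (80.7 ± 20.7 against 7.08 ± 0.905 CPM, 3.51 ± 0.23). Mmp9 (−5.06 ± 0.40), Mmp23 (−2.68 ± 0.20), Adamts4 (−4.72 ± 0.31) and Adamts14 (−2.35 ± 0.47, and −3.23 without neoAC CellC replicate 1) were also higher in the adult cultures. Adamts17 (2.37 ± 0.19), Adamts20 (1.77 ± 0.13), Mmp16 (1.28 ± 0.14) and Mmp15 (0.97 ± 0.12) were higher in the neonatal ones. Mmp14 and Mmp2 were within 1.14 on the log2 scale, both higher in the adult cultures, and Timp3 was not called (−0.13 ± 0.21, adjusted p = 0.614). Markers of mature oligodendrocytes were lower in neoAC CellC in 9 of 9 cases (277 to 360 against 4570 to 11700 CPM), those of endothelium in 7 of 8, of mural cells in 6 of 7, of microglia in 6 of 10 and of mesothelium and epithelium in 5 of 6, while those of astrocytes were higher in 9 of 9 and of ependyma in 5 of 5. Their part in the differences of Adamts4 and the other members was not tested.

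AGES were compared with the NSC they were made from. BMP4 took the place of EGF and FGF in the medium of AGES and laminin that of gelatin on the dish, and the parts of these changes cannot be told apart. AGES had more of 13 of the 39 tested members and less of 15, where 31.7% of all genes rose, 34% fell and 65.7% were called either way. The libraries did not overlap for 27 members, beside 58.3% of all genes, and the median log2 fold change was −0.36 over the members and 0 over all genes (13 higher, 14 lower and −0.21 without the 6 members that pass the filter through 1 group). Within these even counts 3 of the 4 TIMPs rose and none fell. Timp2 stood at 117, 75.1, 88.5 and 121 CPM in NSC and at 1940, 1800, 2150 and 1790 CPM in AGES (19.1-fold, 4.26 ± 0.13, edgeR adjusted p = 1.56e-19). Timp3 stood at 3.68, 9.20, 3.18 and 4.82 CPM in NSC and at 141, 119, 158 and 77.0 CPM in AGES (4.56 ± 0.25). For both inhibitors every AGES library lay above every NSC library. Timp4 rose from 39.3 to 160 ± 33.8 CPM (2.03 ± 0.21) and Timp1 was at or under 0.329 CPM in all 8 libraries. In the same comparison 6 of 9 astrocyte markers rose (sum 1940 to 2470 CPM in NSC, 55100 to 60000 CPM in AGES) and none fell, and 3 of 5 markers of oligodendrocyte precursors fell (1800 to 2150 against 262 to 359 CPM). Of 9 neural stem cell markers 4 rose and 5 fell (3530 to 4280 CPM in NSC, 1320 to 1730 CPM in AGES). Of 8 endothelial markers 1 rose and 4 fell, and of 5 ependymal markers 3 rose and none fell. Their part in the changes of the members was not tested.

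Mmp15, a membrane-anchored MMP, carried the opposite change. It stood at 1670, 1840, 1650 and 1650 CPM in NSC and at 193, 187, 168 and 170 CPM in AGES, a fall of 3.25 ± 0.12 (9.49-fold, edgeR adjusted p = 1.31e-17). Mmp17 fell from 11.5 to 0.475 CPM (fall of 4.58 ± 0.24) and Mmp16 by 0.76 ± 0.14. Mmp24, also membrane-anchored, rose from 0.293 to 1.7 CPM (2.51 ± 0.37), and Mmp25 was not called. Mmp23, anchored too but listed with the other MMPs, rose by 1.4 ± 0.23. Mmp14 was at 0.446 to 0.769 CPM in NSC and 0.507 to 0.705 CPM in AGES (0.02 ± 0.22, adjusted p = 0.986), and Mmp2 fell from 2.55 ± 0.59 to 0.311 CPM (fall of 3.05 ± 0.31). Mmp11, the stromelysin that is activated inside the cell by furin, rose from 2.06 to 37.2 ± 7.9 CPM (4.17 ± 0.20), and Mmp19 from 7.39 to 46.8 ± 6.25 CPM (2.66 ± 0.19).

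Of the lectican-cleaving enzymes 4 rose, namely Adamts8 (0.70 to 43.1 CPM, 5.94 ± 0.23), Adamts15 (3.57 ± 0.31), Adamts1 (2.18 ± 0.16) and Adamts9 (1.34 ± 0.15), and 3 fell, namely Adamts5 (23.7 to 2.10 CPM, fall of 3.50 ± 0.20), Adamts20 and Adamts4. Over all genes 31.7% rose and 34% fell. Of the 8 tested genes outside the lectican and procollagen branches 6 fell, among them Adamts12 (119 to 165 CPM in NSC against 9.64 to 16.0 CPM in AGES, fall of 3.53 ± 0.18) and Adamts7 (fall of 2.35 ± 0.16), and Adamts16 rose (5.49 ± 0.52). Adamts19, another of the 6, stood at 0.573 to 3.83 CPM in NSC, highest in replicate 2, and had 2 counts in AGES. The procollagen protease Adamts2 rose by 4.65 ± 0.28 and Adamts14 fell by 1.96 ± 0.47. NSC replicate 2 stood at 128 CPM of Adamts14 against 31.6 to 46.8 CPM in the other 3, and without it the fall was 1.28. Overlap of exons with a gene on the other strand applies to Mmp11, Mmp19, Adamts4, Adamts7, Adamts8 and Adamts9, over 122 to 1805 bp.

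**Figure D5:**
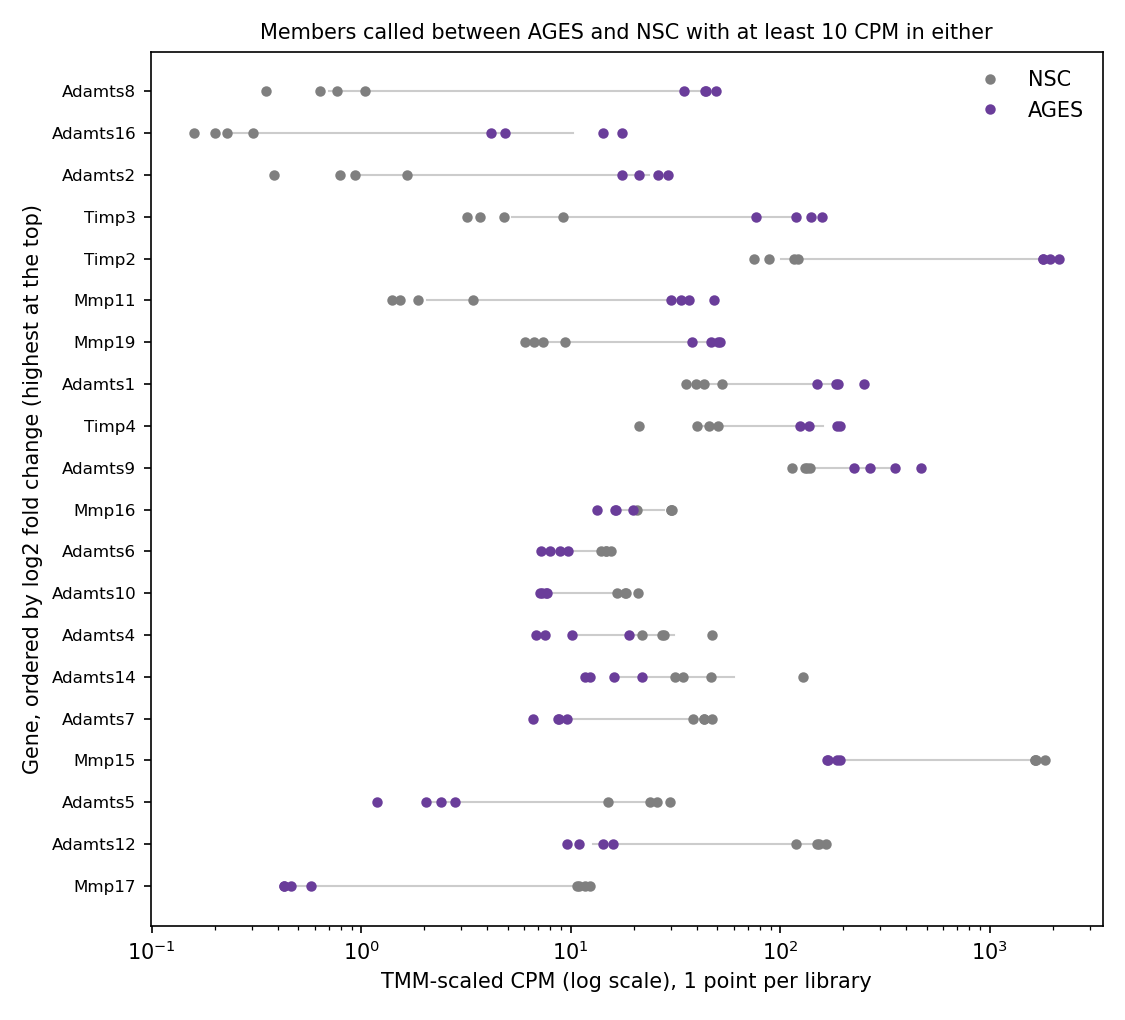
TMM-scaled CPM in NSC (grey) and AGES (purple) of the 20 members called between them that reached 10 CPM in either, with 1 point per library on a log axis, a line joining the means and genes ordered by fold change. Timp2 and Mmp15 are at the far right with their groups exchanged, Timp2 at 1790 CPM or more in AGES and Mmp15 at 1650 CPM or more in NSC.

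AGES were then set against the primary cultures. AGES were kept for 3 to 5 days in the base medium of the NSC with BMP4, on poly-ornithine and laminin. The primary cells were kept for 7 to 10 days in AstroMACS medium, on poly-lysine and laminin. The parts of cell source, medium, coating and time in culture cannot be told apart. Against AdAC CellC, 9 of the 39 tested members were higher in AGES and 22 lower, beside 31% and 45.2% of all genes (76.2% called either way), and the libraries did not overlap for 28 members, beside 73.1% of all genes, with a median log2 fold change of −2.36 over the members and −0.23 over all genes. Against neoAC CellC, 9 were higher and 20 lower, beside 34.1% and 40.5% of all genes (74.6% called either way), and 27 members did not overlap, beside 69.6% of all genes. The AGES libraries enter both comparisons and that with NSC. Without the 6 members that pass the filter through 1 group, the counts were 9 and 16 in both, and the medians −0.32 and −0.83. Mmp14 was at 0.597 CPM in AGES, 237 ± 25.2 CPM in AdAC CellC (−8.62 ± 0.16, edgeR adjusted p = 5.48e-24) and 124 ± 7.64 CPM in neoAC CellC (−7.68 ± 0.15). Mmp2, at 0.311 CPM, was 460-fold lower than in AdAC CellC and 209-fold lower than in neoAC CellC, and Timp1, at 0.194 CPM, was 722-fold and 55.6-fold lower. AGES had no count of Mmp12, against which AdAC CellC was at least 105-fold higher, and none of Mmp3 (at least 82.7-fold). Neither Mmp2 nor Mmp14 thus reached 1 CPM in AGES. The fibroblast and meningeal markers were lower too, in 8 of 8 cases against either culture, at a sum of 5.19 to 6.89 CPM in AGES. Markers of other cell types were lower as well. Against AdAC CellC this held for 8 of 8 of endothelium, 7 of 7 of mural cells, 9 of 9 of mature oligodendrocytes, 9 of 10 of microglia and 5 of 5 of ependyma, and against neoAC CellC for 4, 5, 7, 5 and 5 of these. Of 9 astrocyte markers, 7 were higher in AGES and 2 lower against AdAC CellC, and 3 higher and 4 lower against neoAC CellC. Of 9 neural stem cell markers, 5 were higher and 3 lower against AdAC CellC, and 4 higher and 4 lower against neoAC CellC. The part of such cells in the differences was not tested.

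The members higher in AGES than in both cultures included 2 inhibitors. Timp2 was 3.44-fold higher than in AdAC CellC and 2.51-fold higher than in neoAC CellC (1.78 ± 0.12 and 1.33 ± 0.11), Timp4 22.7-fold and 1.99-fold. Timp3, by contrast, was lower by 2.48 ± 0.22 and 2.35 ± 0.22. Adamts9 stood at 225 to 471 CPM in AGES against 38.9 to 49.0 and 58.6 to 67.0 CPM in the cultures (2.93 ± 0.15 and 2.36 ± 0.15), and Mmp19 differed by 2.22 ± 0.19 and 1.56 ± 0.18. Adamts20, at 0.684 CPM in AGES, was lower by 4.64 ± 0.18 and 6.41 ± 0.18, and Adamts5 by 4.14 ± 0.20 and 4.40 ± 0.20.

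Partners of the matrix proteases outside the 3 families were counted in the same way. The plasminogen system makes plasmin, which activates several MMP precursors: of 10 tested genes 6 rose and 3 fell in adult culture, where 38.8% of all genes rose and 39.2% fell. The urokinase gene Plau stood at 40.5, 31.8, 43.8 and 42.8 CPM in AdAC CellC and at 1.58 to 2.26 CPM in AdAC direct (4.44 ± 0.25, edgeR adjusted p = 2.63e-14). Its receptor Plaur rose by 7.46 ± 0.53 and the hepatocyte growth factor receptor Met by 4.68 ± 0.28. In neonatal culture 4 of the 10 rose and 4 fell, beside 34.4% and 31.3% of all genes, with Plau among those that rose (1.92 ± 0.24). In AGES against NSC 2 of the 10 rose and 3 fell, beside 31.7% and 34% of all genes. The tissue plasminogen activator gene Plat was highest in AGES, at 1190 to 1290 CPM against 221 to 261 CPM in NSC (2.38 ± 0.08). The precursor Plg itself was at most at 0.226 CPM in the mean of any group.

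Among 15 tested genes for other inhibitors and activators of MMPs, 6 rose and 5 fell in adult culture, near the 38.8% and 39.2% of all genes, and 8 rose and 3 fell in AGES against NSC, where 31.7% of all genes rose and 34% fell. A2m, the secreted protease trap alpha-2-macroglobulin, rose by 2.97 ± 0.21 in adult and 2.95 ± 0.20 in neonatal culture and by 2.58 ± 0.20 in AGES, with its highest level of 1550 CPM in neoAC CellC. Furin, which activates membrane-anchored MMPs and ADAMTS precursors, rose from 65.1 to 177 CPM in adult culture (1.44 ± 0.12). Lrp2 rose in both cultures (3.94 ± 0.14 and 5.05 ± 0.15), and the membrane-anchored inhibitor Reck was at 22.5 against 20.3 CPM in the adult groups and was not called. Of 11 membrane-anchored ADAM genes, relatives of ADAMTS that shed surface proteins, 6 rose and 3 fell in adult culture and 5 rose and 3 fell in AGES, beside the same shares of all genes. Adam12 went from 2.06 to 163 CPM in adult culture (6.30 ± 0.32) and from 694 to 21.4 CPM in AGES against NSC (fall of 5.02 ± 0.29). Of the 6 ADAMTS-like genes, which lack the protease domain, 2 rose and 2 fell in adult culture, near the share of all genes, and 5 rose and none fell in neonatal culture, beside 34.4% and 31.3% of all genes. There Adamtsl3 went from 3.18 to 126 CPM (5.31 ± 0.19).

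Lecticans are the substrates of one ADAMTS branch. Of 10 genes for lecticans and their partners, 6 fell and 3 rose in adult culture, where 39.2% of all genes fell, and 8 fell and 1 rose in neonatal culture, where 31.3% fell. Bcan, the brain lectican brevican, stood at 2360, 3010, 2680 and 2220 CPM in AdAC direct and at 35.5, 43.5, 46.2 and 56.6 CPM in AdAC CellC (fall of 5.82 ± 0.17, edgeR adjusted p = 9.94e-20). Ncan, or neurocan, fell from 9314 to 386 CPM in neonatal culture (fall of 4.59 ± 0.18). Versican (Vcan) and tenascin C (Tnc), both known from glial scars, rose in adult culture by 2.83 ± 0.24 and 6.75 ± 0.30 and fell in neonatal culture by 3.61 ± 0.24 and 2.74 ± 0.24, and the interaction was called for both. In the direct libraries 9 of the 10 were higher in neonatal cells, beside 35% of all genes, and only Hapln2, which is known from myelinated axons, was higher in adult ones. Astrocyte markers fell in 8 of 9 cases in adult culture, and in neonatal culture 7 of 9 fell and 1 rose. Between the direct groups 9 of 9 mature oligodendrocyte markers were higher in adult libraries. Their part in these changes was not tested.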

How the data were processed

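RNA was measured in 24 libraries prepared with a stranded mRNA kit. According to the study's methods, the authors aligned reads with STAR 2.7.3a to GRCm38, allowing 20 alignments per read, and counted them over exons of Gencode release 12 with featureCounts. The deposited values are raw counts per gene, and the labels name no batch. Strand setting and counting of pairs are not given in the sources used here. Symbols and exon lengths came from Gencode release 21 of the same build, and promoters from RefSeq GRCm38.p6. Counts were filtered (filterByExpr), TMM-scaled and fitted with edgeR 4.0.16 (robust quasi-likelihood, R 4.3.3) over all 6 groups, two-sided, with Benjamini-Hochberg adjustment over 19691 genes. DESeq2 1.42.0 was an alternative. Totals were 27904126 to 37997368 counts per library. Replicates are separate isolations or cultures of different passages, and those of NSC and AGES share 1 stem cell line, so their p-values measure the spread between cultures. Members, gene lists and tests were chosen with earlier results of these data known. Members were described where the level reached 10 CPM in a group. The cluster on chromosome 9, Mmp24, Mmp25, Adamts18 and Adamts19 were described beside them, chosen after their values were seen. One gene of the plasminogen list is not reported here.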

Additional observations from a re-analysis of the deposited data

Results flagged for a closer look

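In 6 of 107 groups of 4 libraries checked (those with a mean of 10 CPM or more of a member), 1 library lay farther from the others than Dixon's limit, and chance alone gives about 1 in 20. These were Mmp15 (1840 CPM), Mmp16 (20.7 CPM) and Adamts14 (128 CPM) in NSC replicate 2, Adamts1 in neoAC direct replicate 1 (252 CPM), Adamts14 in neoAC CellC replicate 1 (49 CPM) and Adamts15 in AdAC CellC replicate 1 (8.47 CPM). NSC replicate 2 accounts for 3 of the 6.

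The change with culture differed between adult and neonatal astrocytes, by edgeR's test of the interaction, for 26 of the 31 members at 10 CPM or more, where 68.6% of all genes were called. The adult change exceeded the neonatal one (log2) by 9.13 for Mmp9, 4.95 for Adamts12, 4.68 for Mmp17, 3.77 for Adamts14, 3.48 for Mmp14, 3.46 for Adamts3, 3.12 for Adamts7, 2.62 for Mmp2, 2.02 for Adamts15, 1.62 for Adamts1, 1.55 for Adamts9, 1.31 for Mmp23, 1.31 for Adamts6, 1.26 for Adamts5, 0.81 for Adamts8, 0.75 for Mmp15 and 0.54 for Mmp16. For Timp1 it did so by 6.47. For Mmp12 the fitted difference was 7.45, which rests on 1 and 2 counts in the direct groups and is no bound. The difference was negative for Adamts20 (−4.59), Timp4 (−3.27), Mmp28 (−3.01), Adamts2 (−1.52), Adamts17 (−1.49), Timp2 (−0.66) and Mmp11 (−0.63). The calls of Mmp11, Mmp12 and Mmp16 were lost when single libraries were left out, with the values given below.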

How the results depend on the processing

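The counts of members were recomputed with DESeq2, its size factors, library size alone, a strict filter (10 counts or more throughout), a fold change over 1 (log2), the compared groups alone with and without the replicate number as a block, and each library left out. The strict filter kept 24 members: 17 rose in adult culture, 7 fell in neonatal culture, AGES fell below AdAC CellC for 11 and below neoAC CellC for 11, 6 were lower in neoAC CellC than in AdAC CellC, 12 were higher in neoAC direct, and 12 had a positive interaction. Fewer genes are tested under this filter. With a log2 change over 1, 5 members were higher in AGES than in AdAC CellC, 4 than in neoAC CellC, and 7 in neoAC CellC than in AdAC CellC. The other settings kept each count within 1.5 times.

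Of 3569 single-gene values set against the main ones, 5 changed direction, all where the main log2 fold change was near 0. These were Timp3 in neonatal culture (0.15 by library size, 0.02 with the strict filter) and Mmp14 in AGES against NSC (−0.06 by library size, −0.09 without NSC replicate 3, −0.07 without AGES replicate 3, up to 0.16 without NSC replicate 4). Another 89 were no longer called, 44 of them under the fold limit, and 27 were called only in an alternative. Leaving out 1 library ended the call of Mmp12 in the interaction (5.10 without neoAC direct replicate 2), of Adamts1 in neonatal culture (−0.34 without neoAC CellC replicate 3, −0.30 without neoAC direct replicate 1) and of Mmp11 in the interaction (−0.56 without neoAC CellC replicate 3, −0.57 without AdAC CellC replicate 2). The interaction of Mmp16 was also lost without AdAC CellC replicate 1 (0.49), AdAC direct replicate 2 or 3 (0.49 and 0.46) or neoAC direct replicate 4 (0.43), by DESeq2 (0.44), by library size (0.39) and with the strict filter (0.40). Also lost were Adamts7 in neonatal culture (without neoAC CellC replicate 1 or 4 or neoAC direct replicate 3 or 4, 0.29 to 0.38), Adamts8 between the direct groups (without replicate 1 or 2 of either, 0.35 to 0.49), Adamts1 between the cultures (without replicate 3 of either, −0.38 and −0.28) and, in AGES, Adamts1 against neoAC CellC (0.30 without AGES replicate 3) and Adamts17 and Mmp16 against AdAC CellC (0.43 and 0.28 without AGES replicate 1 or 2). The call of Adamts8 was lost as well by library size (0.45) and with the replicate block (0.52). That of Adamts1 between the cultures was lost by DESeq2 (−0.3), by library size (−0.32) and with the strict filter (−0.3). Leaving out a library moved Adamts14 to 4.67 in the interaction without neoAC CellC replicate 1. The causes were not tested. By library size alone the median of all genes was −0.45 in AGES against AdAC CellC (−0.23 with TMM), −0.37 in AGES against neoAC CellC (−0.07) and 0.27 in neonatal culture (0.04).

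In no comparison was every correlation of same-numbered deviations over 0.1, the limit set here for pairing (range −0.167 to 0.438). Between the direct groups, those of replicates 1 to 4 were −0.0496, 0.235, 0.167 and 0.438. Replicate 4 also had the highest mitochondrial share in both neoAC direct (1.94%) and AdAC direct (1.74%). Whether libraries of the same number shared a batch was not tested. With the replicate block 29 members rose and 7 fell in adult culture, 15 and 12 in neonatal culture, 13 and 14 in AGES against NSC, 9 and 21 in AGES against AdAC CellC, 8 and 16 in AGES against neoAC CellC, 15 and 15 between the cultures, 23 and 7 between the direct groups, and 25 and 9 in the interaction. These fits hold the compared groups alone, with 30 to 39 members tested. Without the block such fits gave, in the same order, 29 and 7, 16 and 12, 13 and 14, 10 and 21, 9 and 16, 14 and 15, 24 and 7, and 25 and 9. Values of genes near 3 counts per library (0.0786 to 0.117 CPM), Mmp12 and Mmp13 in neoAC CellC among them, rest on few counts.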
